A study of Mus musculus with 18 samples.

Results

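The genes that separate macrophages living in the heart from macrophages that arrive as blood monocytes were followed in the hearts of irradiated mice. They were chosen by symbol from a list of 10. The resident genes are Lyve1, Timd4, Folr2, Cd163, Mrc1 and Cbr2 (6 genes), and the monocyte-derived genes are Ccr2, Ly6c2, Plac8 and Chil3 (4 genes). All 10 were found among the 30072 genes of the deposited tables, and 9 of them were among the 15054 genes with enough reads to be tested. Chil3 was not.

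The RNA came from 18 CD-1 mice, of mixed genetic background per the labels and outbred per the methods of the study, males and females of at least 8 weeks of age, with 6 mice in each of 3 groups. One group was examined 2 weeks and another 6 weeks after 1 dose of 25 Gy, given under isoflurane anesthesia. Per the methods of the study, the dose was aimed at the heart under image guidance and covered its whole volume. The control mice were anesthetized and, per those methods, scanned by CT, and were given no treatment dose. No time of collection is given for them in the labels, and the same controls served both time points. Whether they match either irradiated group in time is therefore not known. The labels name the septum between the ventricles as the tissue, and the sex of single mice is not given. Tissue was sequenced whole, so a lower level of a gene can come from fewer cells of a type or from less RNA per cell, and these cannot be told apart.

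Most macrophages of the healthy mouse heart are resident cells. Many of them descend from cells seeded before birth and renew themselves in place, and they carry scavenger and clearance receptors. Circulating Ly6C-high monocytes enter injured tissue through the receptor CCR2 and mature there, and cells of this origin can take on parts of the resident pattern. The genes below are therefore markers of a population, and none of them is exclusive to it.

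Total estimated counts per mouse lay between 11522987 and 15501019 (median 13682449), so that 3 counts, the floor used here, corresponded to 0.179 to 0.278 CPM, the unit of counts relative to sequencing depth. CPM values were scaled between mice with the trimmed mean of M-values (TMM), whose factors were 0.844 to 0.991 in controls and 1.04 to 1.13 at 6 weeks. Mitochondrially encoded genes took 19.8% to 25.0% of the counts in controls, 17.8% to 20.6% at 2 weeks and 16.5% to 20.05% at 6 weeks. Removing them before TMM left the counts of higher and lower genes in every list below as they were at 6 weeks. The 6-week call of Cbr2, given below, was lost in that fit. The heart muscle genes on a list of 7 were present at a summed TPM (abundance scaled to transcript length and depth) of 24328 to 35284 in control mice, whereas the summed level of 5 atrial genes varied from 337.3 to 2499 TPM within that group. Control mouse 4 stood apart for macrophage genes: the summed TPM of 20 pan-macrophage genes was 471.1 in that mouse, against a control median of 213. It was also the highest control for 6 fibroblast genes (944.9 TPM, next 540.7) and for the atrial genes (2499, next 1197), and the lowest for heart muscle genes. The part of the tissue make-up in its macrophage values was not tested. The results that rest on it are given with and without it.

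At 6 weeks the monocyte-derived genes rose and the resident genes split. Ccr2, Ly6c2 and Plac8 all rose, 3 of 3 tested, where 13.5% of all tested genes were called higher. Among the 6 resident genes, Cd163 fell, Mrc1 and Cbr2 rose by a small amount that only just passed the test, and Lyve1, Timd4 and Folr2 did not pass. Of all tested genes, 11.5% were called lower. A gene was called at an adjusted P under 0.05 in edgeR's quasi-likelihood test with Benjamini-Hochberg adjustment over all genes tested, and every adjusted P below is from that test unless another is named. The median log2 fold change at 6 weeks was 2.31 over the 3 monocyte-derived genes and 0.14 over the 6 resident genes, against −0.02 over all genes tested. At 2 weeks Ccr2 alone was called, 1 of 3 monocyte-derived genes and 0 of 6 resident genes, where 3.09% of all genes were called higher and 1.93% lower. Among the 6 resident genes, 3 had an unadjusted P under 0.05 at 2 weeks, and DESeq2 called 1 of them, Cbr2, with a log2 fold change of 0.42 in both tools (edgeR adjusted P = 0.063).

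**Figure D1:**
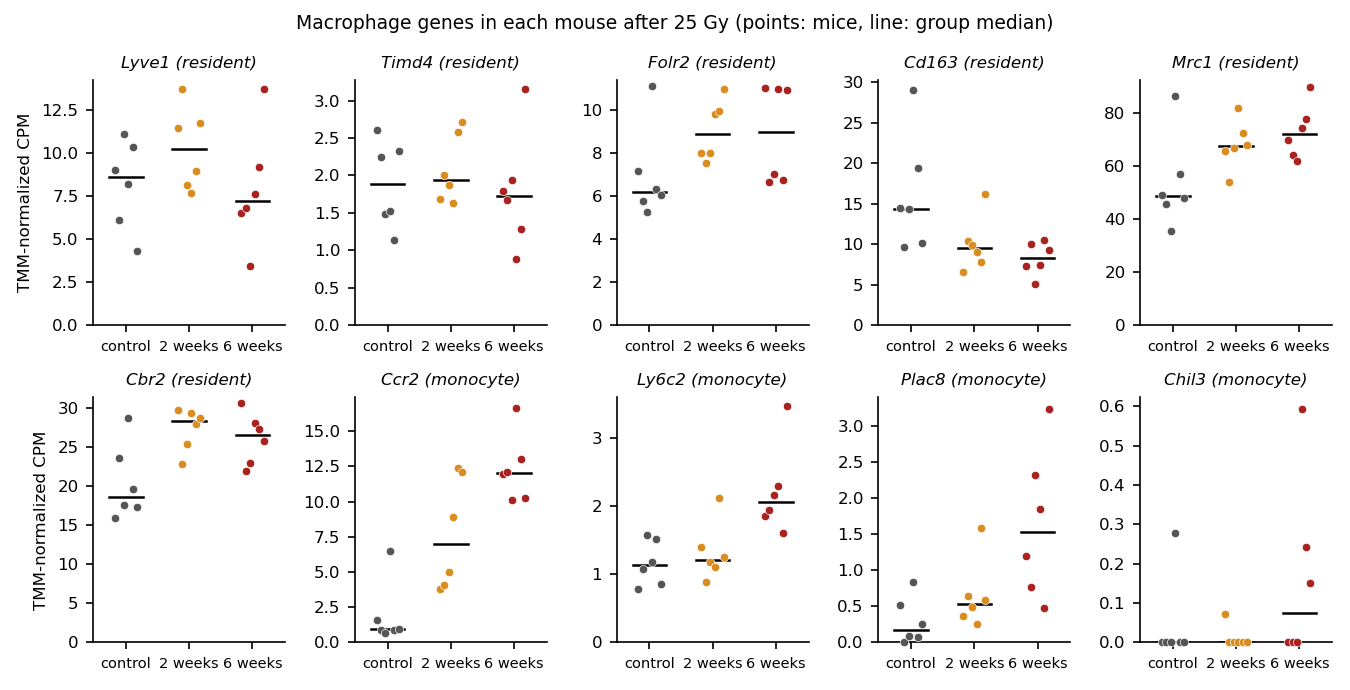
Each point is 1 mouse, the line is the group median, and the vertical axis of each panel is the TMM-normalized CPM of 1 gene, with controls on the left, then 2 weeks, then 6 weeks after 25 Gy. The 6 irradiated mice at 6 weeks lie above every control for Ccr2 and Ly6c2, and 1 control mouse lies far above the other controls for Ccr2 at 6.52 CPM.

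Ccr2 encodes the chemokine receptor through which monocytes leave the marrow and follow CCL2 into tissue. Its level in the controls was 0.648 CPM at the lowest, 0.933 at the median and 6.52 at the highest. At 2 weeks it was 3.82, 6.95 and 12.4 CPM, and at 6 weeks it was 10.1, 12 and 16.6 CPM. The 5 other controls had no more than 1.56 CPM, so the highest control value belonged to control mouse 4 by itself. That mouse overlapped the 2-week group, and the 6-week group did not overlap the controls, as held for 9.23% of all genes tested. Ccr2 rose by a log2 fold change of 1.94 at 2 weeks (SE 0.45, adjusted P = 0.0189) and of 2.61 at 6 weeks (SE 0.44, adjusted P = 0.000283). The second value is a 6.11-fold difference, with a 95% interval of 3.23 to 11.6. Without control mouse 4 the log2 fold changes were 2.91 at 2 weeks (adjusted P = 0.000371) and 3.58 at 6 weeks (adjusted P = 3.54e-06). From 2 to 6 weeks the difference was 0.67 with an interval of −0.10 to 1.44 (adjusted P = 0.313), and the groups overlapped.

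Plac8, a small cysteine-rich protein abundant in Ly6C-high monocytes, was measured from few reads. Controls held 0 to 12 estimated counts with a median of 2, the 2-week mice 4 to 24 with a median of 7.5, and the 6-week mice 6 to 43 with a median of 22.5. In CPM the controls ran from 0 over a median of 0.176 to 0.833, the 2-week mice from 0.262 over 0.537 to 1.59, and the 6-week mice from 0.483 over 1.52 to 3.24. At 6 weeks, 4 of the 6 mice lay above all controls. Plac8 rose by then (log2 fold change 2.31, SE 0.58, adjusted P = 0.00641). At 2 weeks the log2 fold change was 1.02 with an interval of −0.42 to 2.47 (adjusted P = 0.429).

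Chil3, the chitinase-like protein Ym1 that monocytes and alternatively activated macrophages secrete, was too low to test. It had 4 counts in control mouse 4, 1 count in 1 mouse at 2 weeks, and 8, 3 and 2 counts in 3 mice at 6 weeks, and 0 in the other mice. Counts summed over the group were 4, 1 and 13. At this depth a difference was not detectable. Its paralog Chil4, which shares 28.9% of the 31-base stretches of Chil3 transcripts, had 0 counts in all 18 mice.

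Ly6c2 is one of a pair of adjacent genes for Ly6C, the surface protein by which inflammatory monocytes are sorted. The other, Ly6c1, is strongly expressed by endothelium. The genes lie on the reverse strand of chromosome 15 of GRCm38 at chr15:75108158-75111970 (Ly6c2) and chr15:75044018-75048830 (Ly6c1). Their coding sequences are both 396 bases long and 97.7% identical, with 9 differing bases. Since reads from the pair can be split wrongly, the first 120 coding bases of each are shown, with the 6 bases that differ within them in capitals:
Ly6c1: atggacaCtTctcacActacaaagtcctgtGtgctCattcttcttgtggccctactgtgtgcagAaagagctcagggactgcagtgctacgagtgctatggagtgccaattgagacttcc
Ly6c2: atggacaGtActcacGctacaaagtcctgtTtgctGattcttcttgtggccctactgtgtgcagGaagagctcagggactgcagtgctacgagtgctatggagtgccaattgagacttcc

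Ly6c2 had 0.781 CPM at the lowest, 1.13 at the median and 1.57 at the highest in controls. It had 0.882, 1.21 and 2.12 CPM at 2 weeks, and 1.61, 2.06 and 3.46 CPM at 6 weeks. The lowest mouse at 6 weeks lay just above the highest control, so the groups did not overlap by a narrow margin. Ly6c2 was called higher at 6 weeks (log2 fold change of 0.94, SE 0.24, adjusted P = 0.00755), a 1.91-fold difference. At 2 weeks the log2 fold change was 0.21 (adjusted P = 0.704). The neighbour Ly6c1 had 107 ± 21.2 CPM in controls and 119.5 ± 25.1 CPM at 6 weeks (SD, n = 6), with a log2 fold change of 0.16 (adjusted P = 0.424). When the reads of both genes were summed, the log2 fold change at 6 weeks was 0.18 (adjusted P = 0.387). That sum is mostly Ly6c1, which had 8190 counts over the 6 controls where Ly6c2 had 89.

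The size of the Ly6c2 difference depended on the unit. Estimated counts rose 1.91-fold, but its TPM, which divides by transcript length, had a control mean of 0.665 ± 0.26, a mean of 1.73 ± 1.26 at 2 weeks and one of 4.92 ± 1.96 at 6 weeks (SD, n = 6). The number of counts behind 1 TPM of Ly6c2 was lower at 6 weeks than in controls by a mean log2 difference of −1.52, and of 13893 genes with such a value, 0.0144% fell further. For Ly6c1 the same quantity differed by −0.01. Ly6c2 has 4 annotated transcripts of 538 to 2680 bases, the longest of which keeps an intron. With length offsets made from counts and TPM, the log2 fold change at 6 weeks was 2.50 (adjusted P = 0.000172) and that from 2 to 6 weeks was 1.66 (adjusted P = 0.0215), a call that counts alone did not give. Both units place Ly6c2 higher at 6 weeks, and the size of the rise cannot be fixed from these files.

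**Figure D2:**
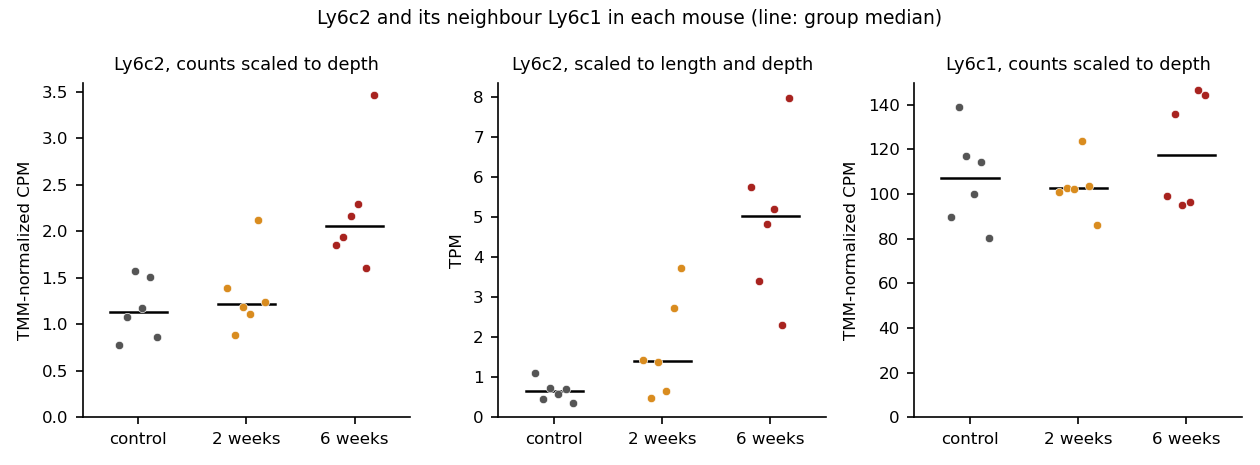
Points are mice and lines are group medians, for Ly6c2 in TMM-normalized CPM (left), Ly6c2 in TPM (middle) and Ly6c1 in TMM-normalized CPM (right). Ly6c2 at 6 weeks lies above all controls in both units, with medians of 1.13 and 2.06 CPM against 0.65 and 5.02 TPM, and Ly6c1 overlaps in all groups.

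Cd163, the scavenger receptor for complexes of haemoglobin and haptoglobin, was the resident gene that fell. Its control levels were 9.67 CPM at the lowest, 14.4 at the median and 29.1 at the highest. They were 6.53, 9.52 and 16.2 CPM at 2 weeks, and 5.11, 8.33 and 10.5 CPM at 6 weeks. At 6 weeks, 4 of the 6 mice lay below all controls, and the groups overlapped. The log2 fold change at 6 weeks was −0.98 (SE 0.26, adjusted P = 0.00977), or 0.508 of the control level with an interval of 0.348 to 0.743. At 2 weeks it was −0.71 (adjusted P = 0.12). Control mouse 4 held the highest value, and without it the fall at 6 weeks was −0.72 (adjusted P = 0.0264). On log2(TPM + 1) values, a scale on which 7354 of the 7472 genes called at 6 weeks were higher, the difference was −0.39 (adjusted P = 0.132).

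Mrc1, the mannose receptor CD206, and Cbr2, a carbonyl reductase found in tissue macrophages, were the most abundant resident genes. Mrc1 ran from 35.3 CPM over a median of 48.5 to 86.3 in controls, from 53.8 over 67.3 to 81.9 in the 2-week group, and from 61.8 over 71.9 to 89.5 in the 6-week group. Cbr2 ran from 15.9 over 18.6 to 28.7 CPM in controls, from 22.9 over 28.3 to 29.7 in the 2-week group, and from 21.9 over 26.5 to 30.6 in the 6-week group. For both genes the groups overlapped, and the highest control was control mouse 4. At 6 weeks the log2 fold change of Mrc1 was 0.44 (SE 0.16, adjusted P = 0.0496) and that of Cbr2 was 0.35 (SE 0.13, adjusted P = 0.0497).

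Both calls depended on the processing and on single mice. Of 12 alternatives that kept all mice, 11 called Mrc1 and 9 called Cbr2. Without the read filter both were lost (Mrc1 adjusted P = 0.0615, Cbr2 adjusted P = 0.0647). Cbr2 was also lost with mitochondrially encoded genes removed before TMM (log2 fold change 0.35, adjusted P = 0.0508) and with length offsets (0.31, adjusted P = 0.102). The Mrc1 call remained when control 4, 2-week mouse 2, or 6-week mouse 2 or 3 was left out, and was lost without any other mouse, with adjusted P up to 0.117. The Cbr2 call remained without those 4 mice and without control 2, and was lost without any other mouse, with adjusted P up to 0.119. Without control mouse 4 both genes were higher at 6 weeks (Mrc1 0.63, adjusted P = 0.000901, and Cbr2 0.47, adjusted P = 0.00356) and at 2 weeks (Mrc1 0.53, adjusted P = 0.0147, and Cbr2 0.54, adjusted P = 0.00812).

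Folr2, the folate receptor beta, had 5.27 CPM at the lowest, 6.19 at the median and 11.1 at the highest in controls. It had 7.54, 8.91 and 11 CPM at 2 weeks and 6.66, 8.98 and 11 CPM at 6 weeks. The highest value of all 18 mice was that of control mouse 4, while the other controls did not exceed 7.16 CPM. The log2 fold change was 0.37 at 2 weeks (adjusted P = 0.276) and 0.35 at 6 weeks (interval −0.04 to 0.74, adjusted P = 0.193). Without control mouse 4 it was 0.54 at 6 weeks (adjusted P = 0.023).

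Timd4, a receptor for phosphatidylserine on dying cells, and Lyve1, a hyaluronan receptor, mark the self-renewing resident subset most closely. Timd4 was the lowest resident gene, with a control level of 1.89 ± 0.584 CPM, a 2-week level of 2.08 ± 0.459 and a 6-week level of 1.79 ± 0.772 (SD, n = 6). For Lyve1 the control level was 8.17 ± 2.58 CPM, that at 2 weeks 10.3 ± 2.39 and that at 6 weeks 7.87 ± 3.42 (SD, n = 6). Their groups overlapped throughout. The difference at 6 weeks was −0.08 for Timd4 (interval −0.64 to 0.47, adjusted P = 0.862) and −0.06 for Lyve1 (interval −0.61 to 0.49, adjusted P = 0.9). Changes within these bounds, in either direction, are not excluded.

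Lymphatic endothelium also expresses Lyve1. Of 8 lymphatic genes, 4 fell and 1 rose at 6 weeks, and at 2 weeks 0 were called by edgeR, DESeq2 and limma voom, with 3 at an unadjusted P under 0.05. Prox1, the lymphatic identity factor that heart muscle also makes, fell from 133.3 ± 12.7 to 101 ± 9.47 CPM (SD, n = 6, log2 fold change −0.40, adjusted P = 0.000541). Ccl21a, a lymphatic chemokine, and Reln, a secreted glycoprotein, fell with log2 fold changes of −1.07 and −0.82, and the receptor gene Flt4 rose by 0.38. The summed TPM of the 8 genes was 51.6 to 82.6 in controls, 65.7 to 83.6 at 2 weeks and 54.3 to 64.1 at 6 weeks. Their part in the Lyve1 levels was not tested.

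From 2 to 6 weeks none of the 9 tested genes was called, where 3.31% of all genes were called higher and 2.01% lower, and none had groups that did not overlap, as 3.54% of all genes did. The unadjusted P was under 0.05 for 2 of the 9, DESeq2 and limma voom called 0, and limma voom with sample quality weights called 1, Ly6c2. The nearest to a call was Ly6c2 (log2 fold change 0.73, SE 0.23, adjusted P = 0.0710), followed by Plac8 (1.29, SE 0.49, adjusted P = 0.13).

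**Figure D3:**
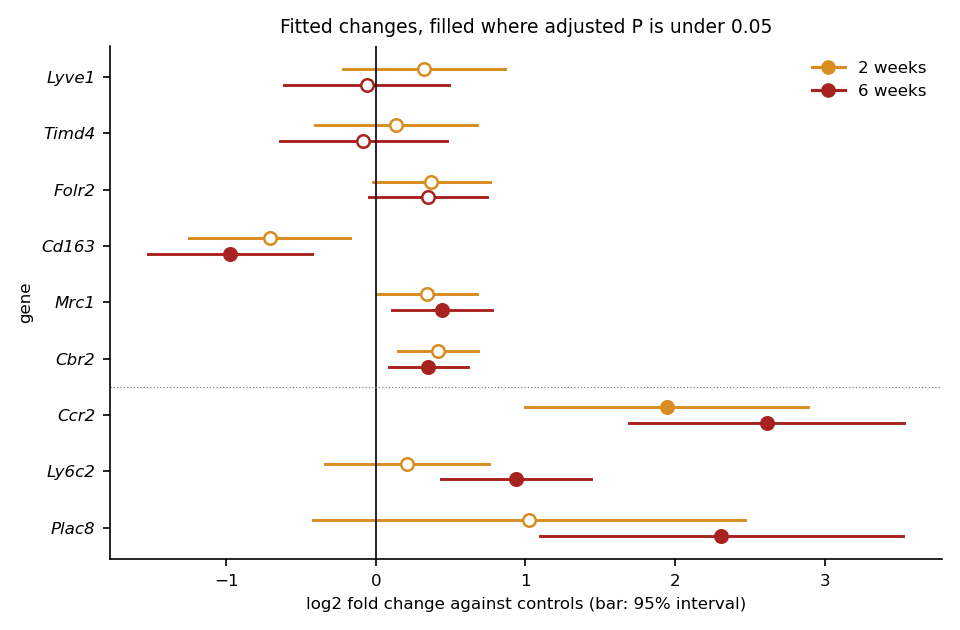
Points are fitted log2 fold changes against controls for the 9 tested genes, bars are 95% intervals, and filled points passed an adjusted P under 0.05. The 3 monocyte-derived genes, below the dotted line, lie to the right at 6 weeks (2.61, 0.94 and 2.31), and Cd163 is the resident gene to the left (−0.98).

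The order of the genes within the tissue was read from TPM, which allows levels of different genes to be compared per length. In controls the order of mean TPM was Cbr2 (27.1 ± 6.21), Mrc1 (11.2 ± 4.02), Folr2 (8.15 ± 3.04), Cd163 (4.06 ± 2), Lyve1 (3.22 ± 1.12), Timd4 (0.985 ± 0.344), Ccr2 (0.694 ± 0.759), Ly6c2 (0.665 ± 0.26) and Plac8 (0.635 ± 0.703; SD, n = 6). Mrc1 and Folr2, Cd163 and Lyve1, and the last 4 genes lay within their SDs of each other. At 6 weeks Ccr2 (6.14 ± 0.734), Ly6c2 (4.92 ± 1.96) and Plac8 (4.49 ± 2.97) came between Folr2 (13.6 ± 3.62) and Lyve1 (4.05 ± 1.8), ahead of Cd163 (2.68 ± 0.612) and Timd4 (1.26 ± 0.583; SD, n = 6). Ccr2, Ly6c2, Plac8 and Lyve1 were not separated by their SDs from the next gene in that order.

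Ratios within a mouse do not depend on the scaling between mice. The 4 monocyte-derived genes made up 1.54% to 5.59% of the summed TPM of all 10 genes in controls (median 2.67%), 5.30% to 11.7% at 2 weeks (median 5.84%) and 10.3% to 18.1% at 6 weeks (median 16.1%). Mice at 6 weeks did not overlap the controls. Since Ly6c2 is uncertain in TPM, Ccr2 was also set against single resident genes. Ccr2 had 0.0753 to 0.292 of the TPM of Cd163 in controls, 0.615 to 2.37 at 2 weeks and 1.77 to 3.29 at 6 weeks, so that it exceeded Cd163 in no control, in 3 of 6 mice at 2 weeks and in 6 of 6 at 6 weeks. Per group, the ratio of Ccr2 to Mrc1 had medians of 0.0375, 0.172 and 0.306. Among the resident genes, Cd163 and Mrc1 moved apart. The ratio of Cd163 to Mrc1 was 0.246 to 0.475 in controls, 0.112 to 0.277 at 2 weeks and 0.0929 to 0.179 at 6 weeks. Cd163 was the only resident gene called lower at 6 weeks, and Mrc1 and Ccr2 were called higher, so these ratios restate those changes. They are descriptions of the same values and were not tested, and how often other pairs of genes separate in this way was not counted.

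**Figure D4:**
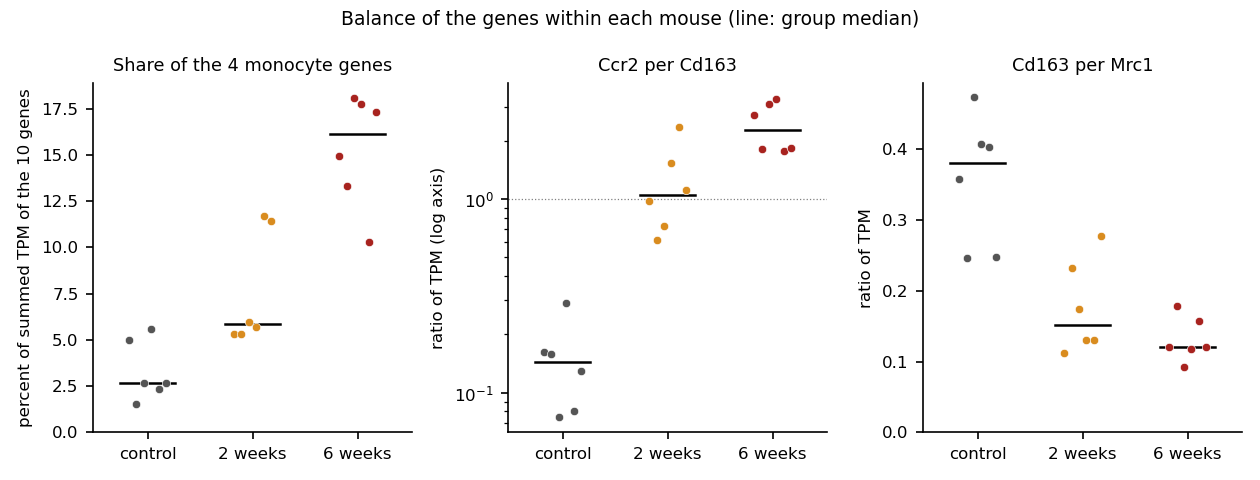
Points are mice and lines are medians. The panels show the percent of the summed TPM of the 10 genes that the 4 monocyte-derived genes took (medians 2.67%, 5.84% and 16.1%), the TPM ratio of Ccr2 to Cd163 on a log axis with a dotted line at 1, and the TPM ratio of Cd163 to Mrc1, which was at most 0.179 at 6 weeks and at least 0.246 in controls.

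General macrophage genes rose over the same time. Of 20 pan-macrophage genes, 19 rose at 6 weeks and 4 rose at 2 weeks, with median log2 fold changes of 1.30 and 0.60. The macrophage identity gene Adgre1 (F4/80) rose from 11.3 ± 5.66 to 27.3 ± 7.2 CPM at 6 weeks (SD, n = 6, log2 fold change 1.26, adjusted P = 0.000708), and Csf1r, the receptor for macrophage growth factor, rose from 56.7 ± 20 to 97 ± 8.8 CPM (0.77, adjusted P = 0.0016). The complement gene C1qa (1.24), the leukocyte gene Ptprc (1.97), the calcium-binding Aif1 (1.74) and the protease gene Ctss (2.21) had the smallest adjusted P of the list, all log2 fold changes at 6 weeks. Without control mouse 4, 12 of the 20 genes rose at 2 weeks and 19 at 6 weeks.

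Each gene was therefore also expressed per mouse as its log2 CPM minus the mean log2 CPM of the 20 pan-macrophage genes, as a description with no test. That mean was 2.64 ± 0.54 for the controls, 3.32 ± 0.094 for mice at 2 weeks and 4.05 ± 0.20 for those at 6 weeks (SD, n = 6). On this relative scale all 6 resident genes lay lower at 6 weeks than in controls, by mean differences from −0.93 (Mrc1) to −2.30 (Cd163). The mean rose by 1.42, however, and 97.2% of all tested genes had a lower mean on this scale at 6 weeks, so that a lower level here does not set the resident genes apart. The groups did not overlap for Lyve1, Folr2, Cd163, Mrc1 and Cbr2, and overlapped for Timd4 (−1.53), where 58.5% of all genes lay lower without overlap. Ccr2 lay higher, by 1.55 at 2 weeks and 1.63 at 6 weeks, although control mouse 4 overlapped both groups. Ly6c2 (−0.57) and Plac8 (0.68) overlapped at 6 weeks. In the tissue as a whole, without the subtraction, Cd163 alone of the 6 resident genes was called lower.

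**Figure D5:**
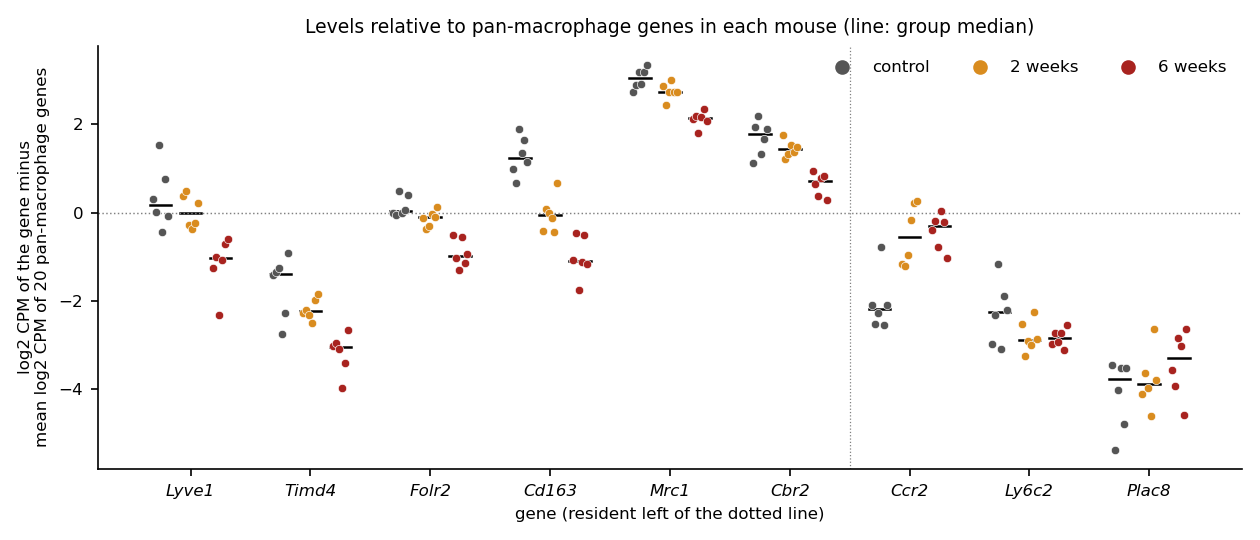
Each point is 1 mouse, with log2 CPM of the gene minus the mean log2 CPM of 20 pan-macrophage genes on the vertical axis, and lines are group medians. The 6 resident genes, left of the dotted line, lie lower at 6 weeks than in controls, as do 97.2% of all tested genes on this scale, and Ccr2 lies higher (mean difference 1.63).

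Other genes of the resident program also went in both directions. Of 22 listed, 20 were tested, and at 6 weeks 8 rose and 4 fell. At 2 weeks 3 rose and 3 fell. Mgl2, a lectin receptor, rose from 3.84 ± 1.31 to 16.1 ± 6.43 CPM at 6 weeks (SD, n = 6, log2 fold change 2.05, adjusted P = 2.16e-05). Siglec1, the sialic acid receptor of tissue macrophages, rose by 1.94 and Gas6, the bridging ligand for dying cells, rose by 0.52 on the log2 scale. Gas6 had a mean of 166.8 CPM in controls, where Csf1r had 56.7. It stood at 287.3 CPM at 2 weeks and 238.7 at 6 weeks, a fall between them (−0.27, adjusted P = 0.0347). Which cells made Gas6 was not tested. The 4 that fell were Cd209g (−2.56, adjusted P = 0.00033), Cd209f (−1.45, adjusted P = 0.000379), Vsig4 (−2.07, adjusted P = 0.00127) and Ccl24 (−0.96, adjusted P = 0.0396), and apart from Cd209g they are named because of their values. Mean CPM in controls and at 6 weeks was 0.811 and 0.138 for Cd209g, and 1.86 and 0.667 for Cd209f. It was 2.03 and 0.4998 for Vsig4, and 3.3 and 1.66 for Ccl24. The 6-week mean of Cd209g lay below the floor of 3 counts, which was 0.179 to 0.278 CPM. The highest mouse had 18.1 counts of Cd209g, 28.9 of Cd209f and 61 of Vsig4, so their 6-week levels rest on few reads. Cd209g and Cd209f belong to a family of closely related lectin genes, and their reads may be shared. Vsig4 encodes a complement receptor of resident macrophages and Ccl24 an eosinophil chemokine. Without control mouse 4, when 19 were tested, 9 rose and 3 fell at 6 weeks, and 6 rose and 1 fell at 2 weeks.

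Other monocyte and recruited-macrophage genes were called in one direction. Of 24 listed, 19 were tested, and 10 rose and 0 fell at 6 weeks, with a median log2 fold change of 0.91. Ms4a4c, a gene of monocytes, rose from 0.165 ± 0.234 to 3.59 ± 1.89 CPM (SD, n = 6, log2 fold change 4.24, adjusted P = 2.35e-05), and Spn, the surface sialoprotein CD43, rose by 2.29. Fn1 (1.54) and Thbs1 (2.05), matrix genes that fibroblasts and platelets also make, rose as well. At 2 weeks 0 of the 19 were called by edgeR and 3 by DESeq2, 3 had an unadjusted P under 0.05, and 5 rose when control mouse 4 was left out. Genes associated with lipid-laden or scar macrophages differed in their calls at 6 weeks. Lgals3 (1.33, adjusted P = 0.00645) and Fabp5 (1.10, adjusted P = 0.0196) rose, while Spp1 (−0.51, adjusted P = 0.708), Trem2 (0.50, adjusted P = 0.551), Gpnmb (0.36, adjusted P = 0.653) and Cd9 (0.13, adjusted P = 0.493) did not pass. These 6 are named because of their function.

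Most ligands and adhesion molecules that bring in and maintain such cells rose too. Of 17 tested genes for monocyte recruitment and macrophage growth, 15 rose at 6 weeks and 3 rose at 2 weeks. The adhesion molecule Icam1 rose from 12.8 ± 2.83 to 28.8 ± 2.11 CPM (SD, n = 6, log2 fold change 1.17, adjusted P = 4.51e-06), the chemokine Ccl5 rose by 2.92, the endothelial selectin Sele by 1.71, and Ccl12, a mouse ligand of CCR2, by 2.06. Without control mouse 4, 6 rose at 2 weeks and 16 at 6 weeks.

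Markers of other blood cells and of the tissue were read from the same test, since they can share the genes above. Of 10 dendritic cell genes 5 rose at 6 weeks, with log2 fold changes of 1.61 for Irf8, 3.92 for Itgax, 2.27 for Flt3 and 1.86 for Cd209a, and 2 rose at 2 weeks. Zbtb46 (0.04), Clec9a (0.21), Ccr9 (0.16), Siglech (−0.20) and Ccr7 (1.56) did not pass at 6 weeks, with adjusted P from 0.0671 to 0.832. They are named because they were not called. The summed TPM of the 10 genes was 10.8 to 17.7 in controls and 22.3 to 34.1 at 6 weeks. Of 13 T, NK and B cell genes 8 were tested and 5 rose at 6 weeks, led by Nkg7 (3.04), Cd79b (1.79), Gzma (1.81) and Cd79a (1.59), from a summed TPM of 1.25 to 2.66 in controls to 5.47 to 14 at 6 weeks. Of these 8 genes DESeq2 called 5, limma voom 2 and limma voom with sample quality weights 3. With scaling to library size only, 8 of the lymphocyte genes and 8 of the dendritic cell genes were called higher at 6 weeks. Ncr1, a defining gene of NK cells, was at 0 in all controls. Of 12 neutrophil genes 3 were tested. Csf3r (1.28) and Il1b (2.31), which monocytes also express, rose, and S100a9 had −0.91 (adjusted P = 0.391). The defining neutrophil genes Elane, Mpo and S100a8 reached no more than 0, 1 and 4 counts in single mice, and the summed TPM of the list was 1.22 to 8.27 in controls and 5.82 to 16.2 at 6 weeks. Ccr2 is also carried by T cells and dendritic cells, and their part in its rise was not tested.

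Among 6 fibroblast genes 2 fell at 6 weeks, Pdgfra (−0.88) and Pi16 (−0.77), while Dcn (−0.33, adjusted P = 0.131) and Tcf21 (0.16, adjusted P = 0.588) did not pass. When control mouse 4 was left out, 2 of the 6 rose and 2 fell at 6 weeks, and at 2 weeks 2 rose and 1 fell, in place of 0 and 1. The summed TPM was 344.1 to 944.9 in controls and 512.3 to 657.4 at 6 weeks. All 7 heart muscle genes were called lower at 6 weeks, including Ryr2 (−0.60), Actc1 (−0.61), Pln (−0.38) and Tnni3 (−0.45). With scaling to library size only, 2 of the 7 were called. Their summed TPM was 27818 to 30434 at 6 weeks. None of the 4 tested atrial genes was called by edgeR or DESeq2 or had an unadjusted P under 0.05, and for Nppa, Myl4, Myl7 and Sln the log2 fold changes at 6 weeks were −0.52, −0.93, −0.81 and −0.75. The part of these tissues in the macrophage results was not tested.

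Likeness between genes was described by Pearson's r of log2 CPM over the 18 mice, after the mean of each group was removed, so that the groups themselves added nothing. Points share their library, and no test was made. The genes named are those with the largest r among 15053 genes, and such a choice gives high values by itself. How large an r chance would give was not computed. Mrc1 was most like Wfdc17 (r = 0.961), Ccl8 (0.911) and Itgam (0.901), and Folr2 was most like Cd180 (0.886), C3ar1 (0.878) and Zc3h12d (0.877). For Ccr2 the 3 leading genes were Cep120 (0.888), Srpx (0.879) and Ccdc80 (0.874), and for Cd163 they were Sfrp2 (0.823), Gda (0.8) and AI413582 (0.793). Cbr2 was closest to Atxn10, Calml4 and Zdhhc9 (0.829 to 0.786), and Plac8 to Slfn4, Amhr2 and Pla2g15 (0.846 to 0.82). Lyve1 had Med6, Mrvi1 and Wapl (0.802 to 0.782), Timd4 had Amph, Gm6919 and Purg (0.81 to 0.806), and Ly6c2 had Slc2a6, Ints9 and Lrtm2 (0.81 to 0.75).

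Between the genes themselves, r was 0.757 for Folr2 and Ccr2, 0.75 for Mrc1 and Ccr2, 0.745 for Folr2 and Mrc1 and 0.667 for Mrc1 and Cbr2. Ccr2 thus varied with the resident genes Folr2 and Mrc1 from mouse to mouse within groups. Lyve1 was most like Cd163 among the genes (0.545) and Timd4 most like Plac8 (0.404), while r was −0.05 between Lyve1 and Timd4, and −0.04 and −0.01 for each with Ccr2. Control mouse 4 was high for Folr2, Mrc1, Cbr2, Cd163 and Ccr2, and its part in these correlations was not tested.

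The start regions of genes that moved together or apart were read from RefSeq (GRCm38.p6), as windows of 300 bases that mostly precede the annotated start. Promoters were found for 9 of the 10 genes, at 12 start sites. Motifs were searched on both strands: GAGGAA, the core of the site of the myeloid factor PU.1, TGCTGA, a half-site of MAF factors, and the core of the interferon response element, GAAA followed by any 2 bases and GAAA again. They were present in 28.3%, 19.5% and 3.44% of 32851 mouse promoters of the same length, and their matches in the windows printed here do not overlap. The sequences of the 3 monocyte-derived genes that rose and of Mrc1 and Cd163, which moved in opposite directions, are printed 5′ to 3′ on the strand of the gene, with matches on either strand in capitals. The Ccr2 window is chr9:124101933-124102232 (+), that of Ly6c2 at its first listed start chr15:75111922-75112221 (−), that of Plac8 at its first listed start chr5:100572156-100572455 (−), that of Mrc1 chr2:14229164-14229463 (+) and that of Cd163 chr6:124304401-124304700 (+).
Ccr2: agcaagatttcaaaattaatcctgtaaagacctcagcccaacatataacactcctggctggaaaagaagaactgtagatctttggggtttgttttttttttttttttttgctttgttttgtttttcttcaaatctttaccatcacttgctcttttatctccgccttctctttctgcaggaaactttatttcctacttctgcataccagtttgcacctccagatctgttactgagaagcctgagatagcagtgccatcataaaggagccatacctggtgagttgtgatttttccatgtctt
Ly6c2: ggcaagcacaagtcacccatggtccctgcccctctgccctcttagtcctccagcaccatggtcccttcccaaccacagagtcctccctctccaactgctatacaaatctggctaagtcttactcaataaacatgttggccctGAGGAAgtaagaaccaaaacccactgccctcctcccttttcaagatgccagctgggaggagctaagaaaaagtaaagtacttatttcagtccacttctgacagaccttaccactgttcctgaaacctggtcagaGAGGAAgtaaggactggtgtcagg
Plac8: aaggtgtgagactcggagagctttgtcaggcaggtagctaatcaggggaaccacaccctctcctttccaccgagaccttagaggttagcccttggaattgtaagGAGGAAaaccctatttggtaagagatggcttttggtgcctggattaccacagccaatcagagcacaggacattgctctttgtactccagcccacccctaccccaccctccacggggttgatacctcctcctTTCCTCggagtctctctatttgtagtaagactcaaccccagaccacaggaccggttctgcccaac
Mrc1: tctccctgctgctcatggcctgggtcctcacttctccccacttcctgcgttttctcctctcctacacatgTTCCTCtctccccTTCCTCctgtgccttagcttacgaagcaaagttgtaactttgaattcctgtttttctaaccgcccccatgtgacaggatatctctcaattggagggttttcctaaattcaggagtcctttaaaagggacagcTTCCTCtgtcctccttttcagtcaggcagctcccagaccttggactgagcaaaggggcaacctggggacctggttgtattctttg
Cd163: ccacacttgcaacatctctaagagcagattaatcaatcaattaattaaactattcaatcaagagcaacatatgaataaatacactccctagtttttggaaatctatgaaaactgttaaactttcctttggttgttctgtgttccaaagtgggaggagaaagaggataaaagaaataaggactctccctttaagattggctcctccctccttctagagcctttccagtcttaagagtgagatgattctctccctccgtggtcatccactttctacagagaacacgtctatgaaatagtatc

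PU.1 core letters occurred 2 times in the Ly6c2 window, 2 times in the Plac8 window and 3 times in the Mrc1 window. No match to any of these motifs lay in the windows of Ccr2 and Cd163, which says only that these letters are absent there. Of the 12 windows, 5 held GAGGAA and 5 held TGCTGA, and none held the interferon response core. The 2 windows of Ly6c2 overlap and hold the same 2 GAGGAA matches, so both are among those 5. GAGGAA thus occurred in windows of some resident and some monocyte-derived genes that rose, but not in that of Ccr2, and is common in promoters at large. The second window of Plac8 held no match to it either. A link between these letters and the rise was not tested.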

How the data were processed

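RNA from 18 mice was sequenced, and each mouse was treated as 1 replicate. STAR alignment to GRCm38, Salmon 1.0 and a sum over the transcripts of each gene were run by the authors, who deposited 1 table of estimated counts and 1 of TPM, neither scaled between mice. The floor of 3 counts stands beside the depth above and covers the error of counting alone. Symbols were found for 29301 genes in GENCODE M21, and 771 had none.

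Estimated counts were rounded and tested with edgeR 4.0.16 in R 4.3.3: at least 0.23 CPM in at least 6 mice, TMM scaling, a quasi-likelihood fit of the 3 groups without a separate dispersion step, two-sided F tests for 3 comparisons, and Benjamini-Hochberg adjustment within each. The code was tested on simulated data. TPM was used for levels between genes, ratios within a mouse, and alternatives with pseudocounts 1 and 0.1. Log2 CPM used a prior count of 2. Alternatives covered DESeq2 1.42.0, limma 3.58.1 (voom with and without sample quality weights), scaling and filters. Others were a block for the replicate number, a Y-linked covariate, summed reads of Ly6c1 and Ly6c2, and leaving out each mouse. Length offsets, levels relative to pan-macrophage genes and lists without control mouse 4 were chosen after seeing the data.

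The members and the gene lists were chosen with earlier results of these data known. From each list the 4 genes with the smallest adjusted P at 6 weeks are named, with Adgre1, Csf1r, Prox1 and Ly6c1, and for each tested gene the 3 genes most like it. Where other genes are named for their values or function, the text says so. The labels name gamma radiation and the septum, where the paper's methods name X-rays and ventricular tissue.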

Additional observations from a re-analysis of the deposited data

Results flagged for a closer look

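In 4 of the 27 sets made by the 9 tested genes and 3 groups, the highest mouse lay so far from the others that the gap, as a share of the range of the group, exceeded Dixon's 95% limit, which chance gives in about 1 of 20 sets. Control mouse 4 had 6.52 CPM of Ccr2, where the next control had 1.56. The same mouse had 11.1 CPM of Folr2, where the next control had 7.16. At 6 weeks, mouse 6 had 3.46 CPM of Ly6c2, next to 2.30. At 2 weeks, mouse 5 had 1.59 CPM of Plac8, next to 0.642. Control mouse 4 was also the highest control for Cd163, Mrc1, Cbr2 and Plac8. None of the 9 genes was called between 2 and 6 weeks.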

How the results depend on the processing

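The monocyte-derived calls held under every alternative run against controls: 1 of 3 genes at 2 weeks and 3 of 3 at 6 weeks in all fits, except that the call of Ly6c2 was lost when its reads were summed with Ly6c1. Between the time points 1 monocyte-derived gene, Ly6c2, was called with limma quality weights, library size only, TPM with either pseudocount and length offsets, and 0 to 1 when single mice were left out (1 without 2-week mouse 5). Counts of resident genes moved with more settings. At 2 weeks 1 was called with DESeq2, limma quality weights and library size only, 3 with TPM at either pseudocount, and 0 to 2 when single mice were left out (2 without control mouse 4). Of all 15054 genes, the main fit called 755 at 2 weeks, DESeq2 1229, limma quality weights 789 and library size only 1789. With TPM, 2813 (pseudocount 1) and 3026 (pseudocount 0.1) were called, of which 2774 and 2990 were higher. At 6 weeks 1 resident gene was called without a filter, 2 with length offsets, and 1 to 4 when single mice were left out. The call of Cbr2 was also lost with mitochondrially encoded genes removed before TMM.

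Directions that turned belonged to differences that were not called. At 6 weeks Lyve1 was 0.19 with library size only and 0.24 and 0.30 with TPM (pseudocounts 1 and 0.1), and −0.29 to 0.092 without single mice. Timd4 was 0.18, 0.17 and 0.27, and −0.31 to 0.052. Between the time points Folr2 was 0.091, 0.091 and 0.095, and −0.097 to 0.050, and Cbr2 was 0.044, 0.094 and 0.096. Ly6c2 at 2 weeks was −0.043 with its reads summed with Ly6c1. Scaling to library size only moved the median over all genes to a log2 fold change of 0.15 at 2 weeks and 0.24 at 6 weeks, and made 5494 of 5820 calls at 6 weeks higher, against 2029 of 3760. The causes were not tested.

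The replicate number as a block gave 0 and 1 calls at 2 weeks and 3 and 3 at 6 weeks for resident and monocyte-derived genes, as without it, and 3549 calls in place of 3760 over all genes at 6 weeks. Deviations of mice with the same number correlated by −0.08 to 0.11, and a mouse was most like its own number in 8 of 36 cases, so the numbers were not taken to pair mice. Chil3 was not summed with Chil4, and neither had enough reads to be tested. Depth limits Plac8, Ly6c2, Timd4 and Chil3, whose highest mouse had 43, 46.3, 42 and 8 counts. It also limits Cd209g and Cd209f of the other resident genes, whose highest mouse had 18.1 and 28.9 counts.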
